A study of Mus musculus with 28 samples.

Results

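The comparison described here is that of MEK inhibition with its solvent at 24h of TGF-β treatment, read by H3K27ac ChIP-seq. It uses 6 of the 15 H3K27ac libraries of the study, chosen by their sample labels: 3 of cells given the MEK inhibitor UO126 at 25 µM (ERKi) and 3 given DMSO, each added 30 min before TGF-β at 2 ng/ml. All 6 libraries come from NMuMG/E9, a subclone of a mouse mammary gland epithelial cell line, so that both groups received TGF-β and differ in the inhibitor. The libraries at 0h and 4h enter where named, and the RNA-seq and input samples, which bring the series to 28 samples, were not analysed here. The labels number the replicates without saying whether they were separate cultures, so the p-values measure the spread between these libraries, which may be technical.

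TGF-β drives NMuMG cells through epithelial-mesenchymal transition (EMT), in which cells loosen their junctions and become motile. Besides the Smad proteins, TGF-β activates the MAP kinase ERK, which is phosphorylated by MEK and in turn acts on transcription factors of the AP-1, ETS and serum response families. Acetylation of histone H3 at lysine 27 marks active promoters and enhancers, so that a change in its level at a site far from a promoter is commonly read as a change in enhancer activity.

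The stretches below come from 10 of the regions described further on and show what the 2 consensus sequences counted further on look like in place. They were picked because they hold a match, so they do not show how often each set of regions holds one. AP-1 is a dimer of Fos and Jun proteins, and its site was searched as TGANTCA, with any base at N. The site of forkhead proteins was searched as TGTTTAC. Each stretch is the plus strand of NCBIM37 (mm9), 5′ to 3′, and the capitals mark the match nearest the summit in that region. The first 6 stretches hold an AP-1 match in regions lower under ERKi, named by the nearest gene. They lie at chr17:66672462-66672588 (Gm10495, intergenic), chr8:26415374-26415500 (Tacc1, intergenic), chr8:123711668-123711794 (Foxc2, in an intron of Gm20388), chr19:5448795-5448921 (Fosl1, intron), chr17:75599112-75599238 (Ltbp1, intron) and chr6:86107658-86107784 (Tgfa, intergenic).
Gm10495: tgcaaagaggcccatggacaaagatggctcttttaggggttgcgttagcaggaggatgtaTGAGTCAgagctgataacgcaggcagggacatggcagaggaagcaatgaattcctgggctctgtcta
Tacc1: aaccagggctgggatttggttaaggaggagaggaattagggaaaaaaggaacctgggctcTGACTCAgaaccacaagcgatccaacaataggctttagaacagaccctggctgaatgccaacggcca
Foxc2: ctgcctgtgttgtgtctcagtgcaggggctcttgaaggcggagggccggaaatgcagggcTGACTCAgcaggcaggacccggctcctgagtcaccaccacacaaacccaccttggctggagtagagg
Fosl1: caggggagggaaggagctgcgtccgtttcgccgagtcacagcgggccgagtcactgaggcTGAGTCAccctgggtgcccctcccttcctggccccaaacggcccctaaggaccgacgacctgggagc
Ltbp1: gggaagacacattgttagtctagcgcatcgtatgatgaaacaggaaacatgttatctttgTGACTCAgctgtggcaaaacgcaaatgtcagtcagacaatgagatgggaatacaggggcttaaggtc
Tgfa: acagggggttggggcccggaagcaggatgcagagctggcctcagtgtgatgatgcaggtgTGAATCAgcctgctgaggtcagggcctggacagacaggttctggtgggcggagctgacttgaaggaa

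The following 4 stretches hold a forkhead match, on either strand, in regions higher under ERKi. They lie at chr11:31723883-31724009 (Cpeb4, at the start of D630024D03Rik), chr2:132815831-132815957 (Fermt1, intergenic), chr1:193486437-193486563 (Lpgat1, intergenic) and chr16:13190984-13191110 (Mkl2, intergenic).
Cpeb4: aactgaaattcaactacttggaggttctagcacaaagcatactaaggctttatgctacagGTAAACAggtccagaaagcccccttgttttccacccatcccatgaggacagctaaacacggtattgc
Fermt1: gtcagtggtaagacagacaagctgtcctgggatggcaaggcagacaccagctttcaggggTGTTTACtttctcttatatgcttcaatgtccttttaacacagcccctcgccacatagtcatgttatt
Lpgat1: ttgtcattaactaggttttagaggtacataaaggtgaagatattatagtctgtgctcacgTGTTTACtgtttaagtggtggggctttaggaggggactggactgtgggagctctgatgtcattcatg
Mkl2: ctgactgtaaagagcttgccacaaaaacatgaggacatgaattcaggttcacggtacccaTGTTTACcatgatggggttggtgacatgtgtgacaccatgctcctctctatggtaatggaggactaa

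The deposited peak lists held between 56042 and 69180 peaks per library at 24h, with 62233 ± 5653 (SD, n = 3) in DMSO and 63294 ± 6675 in ERKi (exact permutation test, two-sided, p = 0.8). Covered length, median width, promoter share, median pileup and median local background gave exact p-values between 0.7 and 1, and all 6 were 1 after adjustment. The smallest p that 3 libraries against 3 allow is 0.1. Replicate 2 of each group had the narrowest peaks, with medians of 423 bp in DMSO and 440 bp in ERKi against 493 to 578 bp in the other 4 libraries. Of 10 luminal marker promoters, 5 (Krt8, Cdh1, Cldn4, Elf3 and Gata3) held a peak in all 6 libraries, while Krt18 and Epcam held none. Promoters of 4 endothelial markers and of the 4 of 5 macrophage markers present in the annotation held no peak. Of the basal markers only Acta2 held one, in 2 DMSO libraries. Fibroblast marker promoters were marked at 3 of 6 genes, Col1a1 in every library, with summed percentiles of 78.5 to 104 in DMSO and 61.7 to 94.9 in ERKi. Of 4 adipocyte marker promoters only Pparg was marked (5.13 to 47.7 in DMSO and 31.8 to 42.2 in ERKi).

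Merging the overlapping peaks of the 6 lists gave 82600 regions, and the 33567 that had peaks in all 6 were tested. The height of a region is the log2 pileup, the number of overlapping fragments at its highest summit, centred on the median of its library. A second measure is the percentile of that pileup within its own list, from 0 for no peak to 100. The median width of the tested regions was 1150 bp.

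H3K27ac was lower under ERKi at 920 regions and higher at 730 (limma, adjusted p below 0.05), which is 2.74% and 2.17% of those tested. The median difference between ERKi and DMSO was -1.22 on the log2 scale in the lower regions and 1.17 in the higher ones, against 0.027 over all tested regions. At 759 and 566 of them the difference was at least 1 log2 unit. The 3 ERKi values lay apart from the 3 DMSO values at 918 and 727 of these regions, where 10.7% and 12.6% of all tested regions did so in the same directions. The 920 regions lay nearest to 708 protein-coding genes and the 730 to 592.

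The counts depended on the libraries and on the fit. With the replicate number as a block, which pairs the libraries, 4441 regions (13.2%) were lower and 5004 (14.9%) higher, including 918 of the 920 and all 730. Without DMSO replicate 1 the counts were 398 lower and 147 higher, without ERKi replicate 1 they were 370 and 284, and without ERKi replicate 2 they were 577 and 350. Leaving out ERKi replicate 3 gave 807 lower and 287 higher, and leaving out DMSO replicate 3 gave 685 and 1106. Without centring on the library median, which moved the median of all regions to 0.14, 162 regions were lower and 218 higher, so that the higher regions made up 57.4% of the calls in place of 44.2%. The local background, the level around a peak, moved with the calls: its median log2 difference was -1.05 in the lower regions and 1.05 in the higher ones, against 0.080 over all. Measured by fold enrichment, which divides the pileup by that background, 40 regions were lower and 21 higher.

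**Figure D1:**
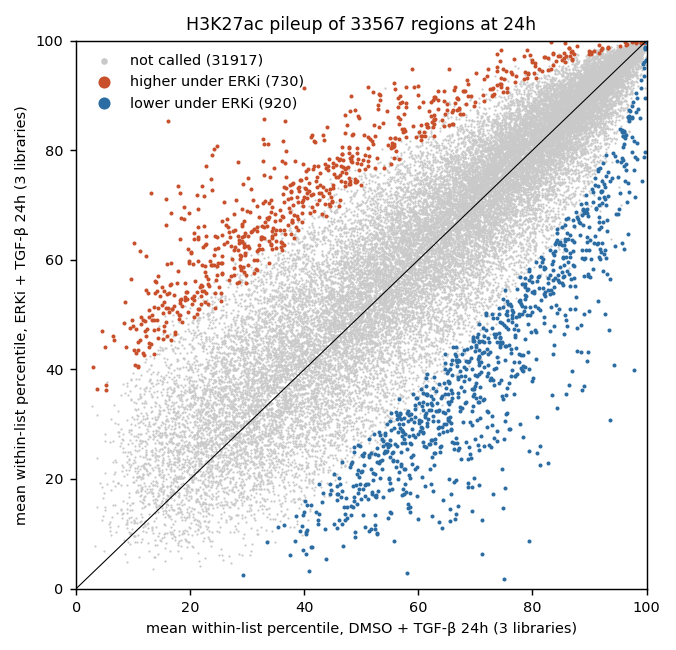
Each point is 1 of the 33567 regions with a peak in all 6 libraries, placed by the mean percentile of its pileup over the 3 DMSO libraries (x axis, 0 to 100) and the 3 ERKi libraries (y axis, 0 to 100) at 24h. The 920 regions lower under ERKi and the 730 higher ones are coloured and lie on either side of the diagonal, on which most regions fall.

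Most of the changed regions lay outside promoters. Of 7624 regions with a summit in a promoter (1000 bp upstream to 100 bp downstream of a start site), 66 (0.866%) were lower and 44 (0.577%) higher. In introns 382 of 12685 (3.01%) were lower and 367 (2.89%) higher, and between genes 438 of 10217 (4.29%) were lower and 270 (2.64%) higher. More than 100 kb from any protein-coding start site, 176 of 3192 (5.51%) were lower and 96 (3.01%) higher. The calls were spread over the lists by rank as well. Above the 80th mean percentile 103 (0.992%) of 10379 were lower and 118 (1.14%) higher, against 380 (4.98%) and 278 (3.64%) of 7638 between the 40th and the 60th.

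The largest fall was in an intron of Dock8, 99.0 kb upstream of Kank1, a regulator of actin assembly, at chr19:25212111-25212920. Its percentiles were 65.9, 71.6 and 87.2 in the DMSO libraries and 2.09, 2.20 and 0.813 in the ERKi libraries. The group values lie far apart, and the log2 difference was -2.98 ± 0.32 (SE, adjusted p = 0.000469), a 7.87-fold fall in pileup. Next came an intron of Scd3, a fatty acid desaturase (chr19:44292244-44293062), with 95.6, 98.6 and 99.1 in DMSO and 41.3, 49.4 and 28.7 in ERKi, a difference of -2.85 ± 0.30. The region in front of Gm10495 (chr17:66671051-66673517) went from 75.8, 76.5 and 85.7 to 9.32, 0.729 and 16.0, a difference of -2.85 ± 0.26. Both groups were again separate, and this region has the smallest adjusted p of the regions named here (0.00023).

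The other 9 of the 12 regions with the largest falls were as follows. An intronic region 34.3 kb upstream of Tead1, the DNA-binding partner of YAP, had percentiles of 78.8, 66.5 and 92.8 in DMSO and 20.3, 26.3 and 28.7 in ERKi (-2.27 ± 0.33). One in an intron of Ksr2, a scaffold of the ERK cascade, 170 kb from Nos1, had 67.5, 72.1 and 73.6 against 4.21, 15.3 and 17.9 (-2.36 ± 0.31). At Ccbe1, which codes for a secreted factor of lymphatic growth, an intronic region had 76.7, 66.5 and 81.5 against 20.3, 2.20 and 21.5 (-2.42 ± 0.26), and no 0h library had a peak there. The region 103 kb upstream of Tacc1, a microtubule-associated protein, had 89.6, 60.8 and 92.0 against 37.6, 4.42 and 32.3 (-2.30 ± 0.33), while that at Add2, an actin-capping adducin, had 67.5, 76.9 and 81.2 against 22.0, 7.07 and 26.0 (-2.28 ± 0.26). The remaining 4 lay nearest to Ndst3, 2610203C20Rik, Phxr4 and Zfp53, with differences between -2.61 and -2.30. The 12 were taken from called regions whose groups did not overlap, so their separation is part of how they were chosen.

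The largest rise was in an intron of Igf2bp3, an mRNA-binding protein, at chr6:49098094-49100015, with percentiles of 3.11, 33.3 and 12.1 in DMSO and 83.2, 80.7 and 92.2 in ERKi. The difference was 2.74 ± 0.33 (adjusted p = 0.000785), a 6.70-fold rise in pileup. Second was a region in Stau2 (chr1:16224335-16225328), nearest to the start of Rdh10, a retinol dehydrogenase, with 22.7, 16.7 and 32.9 against 85.3, 64.0 and 91.4 (2.23 ± 0.29). No 0h library had a peak at this region. The intronic region of Hadh, an enzyme of fatty acid oxidation, also had no peak at 0h, and went from 9.69, 28.0 and 30.4 to 78.6, 65.4 and 87.1 (2.12 ± 0.30).

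The other 9 of the 12 regions with the largest rises included 3 near genes of adhesion or transcription, named here for their known roles. The region 44.6 kb upstream of Fermt1, an integrin activator of epithelial cells, had 7.38, 40.7 and 25.8 in DMSO and 75.1, 77.3 and 89.7 in ERKi (2.20 ± 0.33). At Mkl2, a serum response factor coactivator, the values were 17.8, 19.3 and 34.2 against 78.4, 69.0 and 90.2 (2.16 ± 0.28). The region 13.7 kb upstream of Klf10, a transcription factor induced by TGF-β, had 7.38, 2.65 and 20.5 against 65.9, 47.2 and 76.0 (1.96 ± 0.29). One of the 12 was a promoter, that of D630024D03Rik, 47.9 kb from Cpeb4, a cytoplasmic polyadenylation factor, with 28.3, 44.5 and 25.8 against 79.3, 86.5 and 91.4 (2.12 ± 0.29). The other 5 regions, near 1700061J05Rik, Samd7, Cacna1g, Tbc1d16 and Lpgat1, had differences between 1.96 and 2.23. These 12, too, were taken from called regions whose groups did not overlap. Each of the 24 regions kept its call when any 1 of the 6 libraries was left out. By fold enrichment 11 of the 12 lower and 11 of the 12 higher regions had the same sign, the exceptions being 2610203C20Rik (0.14) and Fermt1 (-0.11).

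**Figure D2:**
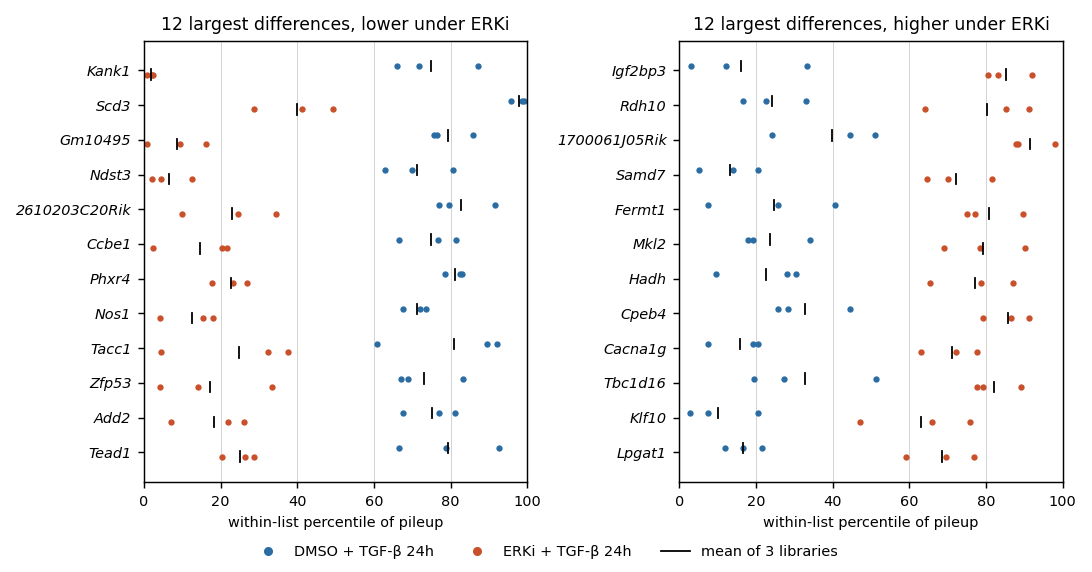
Percentile of the pileup within its own list (x axis, 0 to 100) for the 24 regions with the largest differences, 12 lower and 12 higher under ERKi, with 1 point per library at 24h. The regions were chosen among those whose groups do not overlap, and the rows show how far apart the groups lie.

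Changed regions lay together along the chromosome. Within 20 kb, 254 (27.6%) of the 920 lower regions had another lower region and 169 (23.2%) of the 730 higher ones another higher region, while 4 in each direction had one of the opposite call. Of all tested regions, 4.05% had a lower and 3.35% a higher region that near. Of the tested neighbours within that distance that were not called themselves, 77.6% of 1295 were below 0 beside lower regions and 82.0% of 1068 above 0 beside higher ones, where 46.8% of all tested regions were below 0 and 53.2% above. Runs of at least 3 calls in 1 direction numbered 35 for lower and 20 for higher regions. Calls less than 50 kb apart were joined for these runs.

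The run with most calls covered the start and the first part of Ptpn14, a tyrosine phosphatase that restrains YAP. Over chr1:191552144-191616638 (64.5 kb), 11 of 12 tested regions rose, with a median of 1.20 and a range of 0.71 to 1.64. A run of 5 of 6 rose near C030046E11Rik (median 1.01), another of 5 of 6 at Nceh1, a cholesterol ester hydrolase, and Ect2 (1.06). Among the falling runs, 7 of 7 regions fell over 21.0 kb at 119 to 139 kb from Tgif1, a Smad corepressor and the nearest coding gene (median -1.05, -1.29 to -0.70). None of the 14 regions within 100 kb of Tgif1 was called. A further run fell at 7 of 11 regions at Gsg1 and Pbp2 (-0.93). At Csf2, which codes for the cytokine GM-CSF, and its neighbour P4ha2, a prolyl hydroxylase of collagen, 6 of 6 fell (-1.43). At Errfi1, an inhibitor of the EGF receptor that ERK itself induces, 4 of 4 fell (-1.70), and 4 of 5 between Mepe and Spp1, which code for secreted phosphoproteins of matrix (-1.82). The run at Gm10495 and 1110012J17Rik fell at 5 of 5 regions with a median of -2.46.

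Counted by nearest coding gene at any distance, the genes with most falling regions were Asap1 (7 of 21), an Arf regulator of focal adhesions, Tgif1 (7 of 25), the Notch ligand Jag1 (6 of 27), Myc (5 of 37), Csf2 (5 of 6), Gsg1 (5 of 7), Gm10495 (4 of 5) and Errfi1 (4 of 9). Within 100 kb of the start, Asap1 kept 2 of 13, and none of 14 regions of Tgif1, 9 of Jag1 and 7 of Myc was called, while the counts of the other 4 were as given. Those with most rising regions at any distance were Ptpn14 (11 of 19), C030046E11Rik (5 of 9), Arhgef26 (4 of 6), Nceh1 (4 of 7), Il15 (4 of 10), Rdh10 (4 of 11) and Sfi1 (4 of 16). Within 100 kb, Rdh10 kept 1 of 2 and the others all their calls, Arhgef26 among 5 regions and Il15 among 7. None of the genes named here had a call in the opposite direction.

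Averaged per gene over the regions within 100 kb of its start, 43 of 12486 genes (0.344%) were lower and 26 (0.208%) higher under ERKi (limma, adjusted p below 0.05). Among the lower were Fosl1 (-1.67 ± 0.15, 1 region), a Fos family subunit of AP-1, Csf2 (-1.21 ± 0.20, 6 regions), and Ltbp1 (-0.92 ± 0.14, 11 regions), which tethers latent TGF-β to the matrix. Also lower were Tet2 (-1.0 ± 0.16, 4 regions), which oxidises methylated cytosine, and Foxc2 (-1.87 ± 0.21, 1 region), a forkhead factor of EMT. The higher genes included 2 of oxidative metabolism, Hadh (1.42 ± 0.16, 2 regions) and Adh7 (1.20 ± 0.16, 2 regions), with Cyp1b1 (1.20 ± 0.18, 3 regions), a cytochrome, and Mmp15 (1.78 ± 0.30, 1 region), a membrane-bound protease. These 9 genes were chosen for their known roles after the values were seen. With the block, 1130 genes (9.05%) were lower and 1196 (9.58%) higher. By limma 0 genes passed without DMSO replicate 1, DMSO replicate 2 or ERKi replicate 1, where 585, 757 and 679 were lower and 577, 1013 and 705 higher at an unadjusted p below 0.05. The counts were 7 lower and 1 higher without ERKi replicate 2, 12 and 3 without ERKi replicate 3, and 10 and 14 without DMSO replicate 3.

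Gene lists of the pathways concerned were counted over the tested regions within 100 kb of a start site, of which 744 of 30375 (2.45%) were lower, 634 (2.09%) higher and the median difference was 0.032. With the block, 8267 of these 30375 regions passed, 3744 lower and 4523 higher, and the block counts of the lists below stand beside this share. Genes that ERK induces and that restrain its pathway had 7 lower and 0 higher regions among 121, with a median of -0.15, and with the block 41 lower and 16 higher. The 7 lay at 4 of 19 genes. At Errfi1 the region 44.7 kb upstream went from 57.2, 77.8 and 64.1 in DMSO to 18.4, 12.6 and 6.97 in ERKi (-2.17 ± 0.32, adjusted p = 0.0027). Spry2 (-1.20 ± 0.26) and Spred2 (-1.03 ± 0.23), inhibitors of Ras signalling, and Lrig1 (-1.01 ± 0.25), which lowers ErbB receptors, each had a lower region, called at adjusted p = 0.0173, 0.0222 and 0.0316. These regions lay 93.5, 4.11 and 45.8 kb from the start. The MAP kinase phosphatases had none among the 57 regions of 9 genes, and the median per gene was below 0 for 5 and above 0 for 4, from -0.55 at Dusp7 to 0.48 at Dusp14. At Dusp6, a phosphatase of ERK, it was -0.34 over 11 regions.

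Ligands and receptors of the EGF family had 3 lower regions and 1 higher among 39 (median -0.21, with the block 11 lower and 1 higher). The ligand Tgfa had 64.6, 85.2 and 79.0 in DMSO and 38.6, 39.5 and 50.8 in ERKi at the region 37.6 kb upstream (-1.40 ± 0.28, adjusted p = 0.0125). The ligand Ereg (-1.24 ± 0.26) and the receptor Egfr (-0.91 ± 0.20) had a lower region each. The receptor Erbb3 differed in direction: its promoter went from 58.3, 77.8 and 65.2 to 84.8, 87.4 and 91.1 (0.89 ± 0.24, adjusted p = 0.0444).

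Of the transcription factors that ERK acts on, the AP-1 subunits had 1 call in 52 regions (median 0.029), at Fosl1. This region (chr19:5447637-5449750) covers the Fosl1 start at 5447703. Its middle lies 990 bp from that start and its summit in an intron. There the percentiles were 99.1, 99.6 and 98.8 in DMSO and 77.9, 72.8 and 72.5 in ERKi (-1.67 ± 0.18, adjusted p = 0.000469), so that a region at the top of each DMSO list fell below the 80th percentile. The promoter of Fosl2 gave 0.35 ± 0.15 and that of Fos 0.12 ± 0.20, and neither passed the test. ETS factors had 2 higher regions, both at Ehf, an epithelial ETS factor (the larger 1.27 ± 0.29), and 1 lower at Etv6 (-1.22 ± 0.26), among 64. The promoter of Etv5, a PEA3 factor downstream of ERK, gave -0.86 ± 0.32 (adjusted p = 0.148). Early growth response genes had 2 higher regions, at Klf10, and 1 lower among 132, the latter 97.8 kb from Ptgs2 (-1.34 ± 0.29).

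TGF-β pathway genes had 7 lower and 3 higher regions among 159 (median 0.042, with the block 34 and 27). Among the receptors and ligands only Tgfbr3 and Tgfb2 had calls, and these were higher. A region in Tgfbr3, the betaglycan co-receptor, went from 37.2, 37.9 and 28.9 to 71.1, 75.1 and 84.0 (1.62 ± 0.27, adjusted p = 0.00439). A region of the ligand Tgfb2 rose by 1.08 ± 0.29. Calls at Ltbp1 (4 of 11 regions), Smad7 (2 of 17) and Smad3 (1 of 15) were lower, while Smad2, Smad4 and Smad6 had none. The largest of 4 falling regions in Ltbp1 had 87.9, 84.0 and 87.7 in DMSO and 54.4, 42.3 and 56.5 in ERKi (-1.48 ± 0.23). A region in Ctif nearest to the start of Smad7, the inhibitory Smad, had 92.9, 87.3 and 95.6 against 59.0, 60.9 and 64.2 (-1.40 ± 0.22), and one in Smad3, a receptor-regulated Smad, had -1.19 ± 0.25. The transcription factors of EMT had 1 call each way among 41: the region 71.5 kb from Foxc2, the nearest gene annotated as protein-coding (the start of Foxl1, listed as a pseudogene in this annotation, is nearer), fell (61.8, 67.1 and 70.9 against 18.4, 9.87 and 31.2, -1.87 ± 0.27), and one in an intron of Zeb1 rose (13.9, 31.6 and 22.4 against 63.1, 48.3 and 65.1, 1.36 ± 0.28).

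Matrix and adhesion genes had 7 lower and 0 higher regions among 136 (median -0.18, with the block 40 lower and 11 higher). They lay at Spp1 (-1.66 ± 0.26), a secreted ligand of integrins, Itgb3 (-1.63 ± 0.32), an integrin subunit, Lamb1 (-1.22 ± 0.27), a laminin chain, and Col4a2 (-0.93 ± 0.25), a basement membrane collagen. At the Spp1 region, 53.9 kb from the start, the DMSO percentiles of 96.6, 95.8 and 97.8 stood against 53.8, 76.7 and 63.8 in ERKi. The Itgb3 region lay 11.4 kb from the Itgb3 start, and the annotated start nearest to its summit was one of Myl4. Junction and polarity genes lay on the other side of 0. Their 153 regions had 3 higher and 2 lower calls, but a median of 0.21, and with the block 47 were higher and 9 lower. A region 19.1 kb upstream of the claudin Cldn12 rose from 60.9, 71.1 and 91.5 to 96.2, 99.0 and 99.7 (1.57 ± 0.27, adjusted p = 0.00566). An annotated start of Gtpbp10 lies nearer to it. A region in Cmtm8 rose by 1.24 ± 0.29 but gave -0.45 by fold enrichment, while regions at Cldn23 (-1.16 ± 0.27) and Cldn3 (-1.02 ± 0.27) fell. The promoter of Cdh1, the adherens junction cadherin, gave 0.00 ± 0.19.

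Transcription and splicing factors of epithelia had 4 higher regions and 2 lower among 87 (median 0.20, with the block 26 higher and 9 lower), the higher ones at Ehf and at Hnf4a (0.85 ± 0.23) and the lower at Cebpb (-1.10 ± 0.26) and Gata3 (-0.92 ± 0.23). The lower regions lay 65.0 kb from the start of Cebpb and 86.4 kb from that of Gata3. Cytokine genes had 10 lower and 4 higher regions among 113 (median -0.086). A region 29.7 kb upstream of Jak2, the kinase of cytokine receptors, fell from 99.7, 99.1 and 99.8 to 74.3, 77.8 and 84.0 (-2.04 ± 0.24, adjusted p = 0.000732), and the largest of 5 at Csf2 fell by 1.63 on the log2 scale (SE 0.28). Jak2 had 3 more lower regions and 1 higher. Regions at Il33 (1.14 ± 0.29) and Cxcl1 (0.98 ± 0.26) rose, and one in an intron of Nfkb1 fell (-0.71 ± 0.19). The medians of the feedback, EGF, matrix and cytokine lists lay below that of all regions, and those of the junction and identity lists above it, by pileup with or without centring and by quantile or loess scaling, but by fold enrichment each of these 6 lists lay on the other side, and by -log10 p the cytokine list lay level with all regions.

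In the remaining lists the calls were few. Cell cycle genes had 3 higher and 2 lower regions among 100. A region 7.43 kb upstream of Btg2, an antiproliferative gene, was higher (1.50 ± 0.28). So was one in an intron of Gng12, 23.3 kb from Gadd45a, the nearest coding start (1.34 ± 0.29). The promoter of the cyclin Ccne1 was lower (-1.23 ± 0.31). The cyclin Ccnd1 had a call each way, at 1.37 ± 0.33 and -1.38 ± 0.27. Notch and Wnt genes had 3 each way among 108, with 1 region per gene. Regions nearest to Hey1, Wnt4 and Axin2 were higher (1.27, 1.20 and 1.17), at 74.8, 0.568 and 21.7 kb from the start. Those nearest to Wnt7b, Notch1 and Hes1 were lower (-1.26, -0.97 and -0.97), at 22.5, 9.25 and 11.8 kb. YAP-TEAD genes had 3 lower among 85, at Tead1 and Amotl1 (-1.73 ± 0.27). Kinases of the MAP kinase cascades had 2 lower, at Map2k6 (-1.50 ± 0.25) and the scaffold Ksr1 (-1.10 ± 0.24), and 1 higher, at Mapk14 (0.95 ± 0.25), among 88. Keratins had 1 lower region, at Krt80 (-0.92 ± 0.22), among 38, and the Runx and Sox genes 1, at Sox13 (-1.51 ± 0.29), among 73. No region of the Id and BMP genes (46), of actin and myosin genes of mesenchyme (63), of other receptor kinases (120) or of ribosomal proteins (43) passed limma's test. At an unadjusted p below 0.05 there were 7, 6, 25 and 1 of them. With the block 17, 12, 41 and 3 passed, where 8267 of all 30375 regions within 100 kb did so. The calls named for Notch1 and Nfkb1 were lost whichever of the 6 libraries was left out. Those at Lrig1, Erbb3, Col4a2, Cldn3, Ccne1 and Mapk14 were kept in only 1 of these 6 fits. Those at Tgfb2, Cmtm8, Cebpb, Gata3, Hnf4a, Krt80, Wnt4, Axin2, Il33 and Cxcl1 were kept in 2. The calls at Errfi1, Fosl1, Foxc2, Tgfbr3, Ltbp1, Smad7, Spp1, Itgb3, Cldn12, Amotl1, Jak2, Csf2, Btg2, Sox13, Map2k6, Klf10 and Tead1 were kept in every case.

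**Figure D3:**
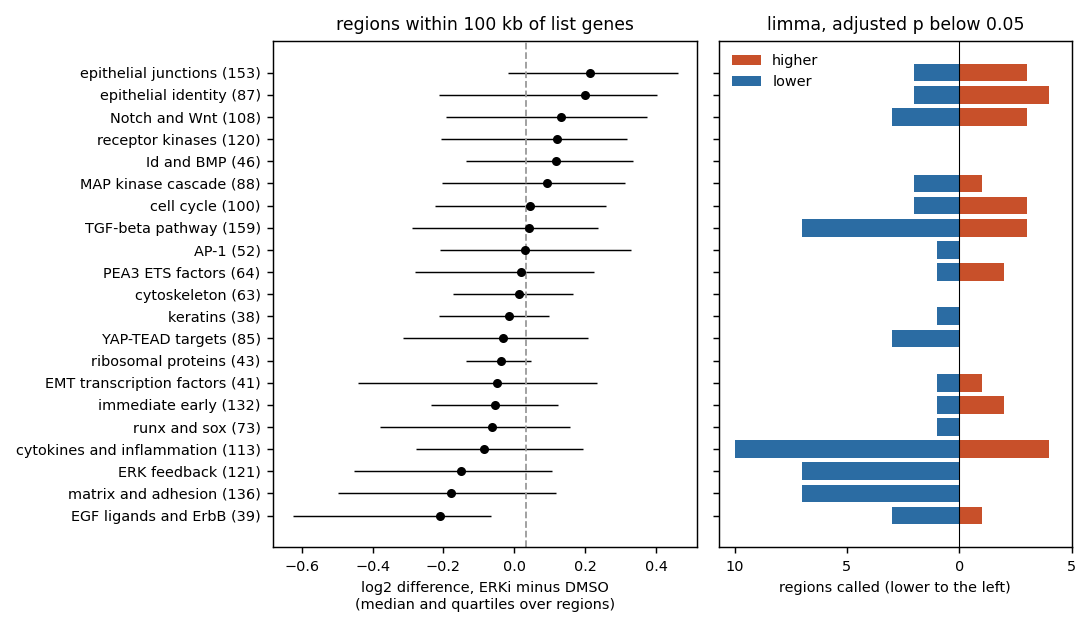
Left, log2 difference in pileup between ERKi and DMSO at 24h (x axis) for each gene list, with the median as a point, the quartiles over its tested regions as a line, the number of regions in brackets and the median of all regions within 100 kb as a dashed line. Right, the number of regions called lower (to the left) and higher (to the right). The ERK feedback, EGF and matrix lists have medians below 0 and the junction and identity lists above it, between -0.21 and 0.21 by pileup, and by fold enrichment each of these lies on the other side of the median of all regions.

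The AP-1 consensus was searched as TGANTCA, on both strands. Within 500 bp of the summit it was in a larger share of the lower than of the higher regions. Within 200 bp these shares were 14.9% and 13.4%, and within 50 and 100 bp the share was larger in the higher regions. Within 100 bp of the summit it was in 3.80% of the 920 lower regions, 5.89% of the 730 higher ones and 4.03% of all tested. Matches lay away from summits: outside promoters, the bins from 200 to 350 bp held one in 15.6% to 16.0% of the lower regions, 9.47% to 10.3% of all and 7.43% to 8.89% of the higher. Within 500 bp, a window chosen after these positions were seen, 67.2% of 854 lower regions outside promoters held a match, against 44.0% of 686 higher ones and 48.9% of all 25943. The share was 65.1% of the 1167 regions called in all DMSO and no ERKi libraries and 43.2% of the 1418 called the other way round.

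The number of AP-1 matches was counted in the same way. Among regions outside promoters with 0 matches within 500 bp, 2.11% were lower and 2.90% higher, with 1 match 4.11% and 2.64%, and with 2 or more 5.34% and 1.85%. This order was not seen in narrower windows: within 200 bp the lower shares were 3.25%, 3.57% and 3.31%, within 100 bp 3.30%, 3.13% and 0% (of 37 regions), and within 50 bp 3.30%, 3.14% and 0% (of 7 regions). The forkhead consensus TGTTTAC, which shares no overlap with AP-1, was ordered the other way, in 21.6% of the higher, 11.7% of the lower and 14.8% of all regions outside promoters in the same window. The E-box CAGGTG was in 59.2%, 47.9% and 51.5% of these sets, TCF/LEF (ATCAAAG) in 13.0%, 17.9% and 13.5%, RUNX (TGTGGTT) in 24.2%, 28.5% and 22.7%, and TEAD (CATTCCA) in 20.7%, 18.3% and 18.4%. The serum response CArG box was in 5.83%, 5.50% and 4.55% and ETS (CCGGAAGT) in 1.31%, 1.99% and 3.39%. KLF (GGGTGTGG) was in 12.5%, 8.31% and 11.3%, AP-2 (GCCNNNGGC) in 28.4%, 23.7% and 32.3%, and SOX (ACAATNG) in 25.1%, 28.9% and 24.2%. For the remaining 11 of 22 consensus sequences the higher and lower shares were within 3.32 percentage points. They were CRE (TGACGTCA), the SMAD palindrome (GTCTAGAC), GRHL (AACCNGTT) and the E-box CACGTG. The others were CEBP (TTGCNCAA), STAT (TTCCNGGAA) and AGATAAG of the GATA factors, with HNF1 (GTTAATNAT), the nuclear receptor site AGGTCA, NF-kB and the paired p53 family site. The GC content of the same windows was 47.5% in the higher, 46.1% in the lower and 49.7% in all, and its part in these shares was not tested.

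**Figure D4:**
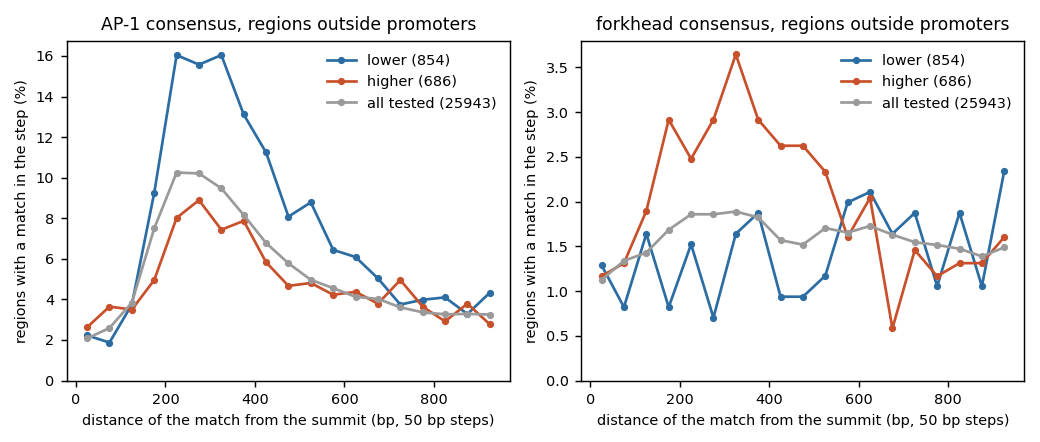
Share of regions outside promoters, in percent (y axis), that hold an AP-1 match (left) or a forkhead match (right) in each 50 bp step of distance from the summit (x axis, bp), for regions lower or higher under ERKi and all tested. The AP-1 share of the lower regions reaches 16.0% between 200 and 350 bp, above that of all regions and of the higher ones.

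The same contrast was measured at 4h in other libraries, over 29361 regions with a peak in all 12 libraries of both times. At 4h, 37 regions (0.126%) were lower under ERKi and 2 (0.00681%) higher, and with the block 1805 (6.15%) and 993 (3.38%). The count of higher regions was between 0 and 5 with any 1 library left out, and that of lower regions was 7 without DMSO replicate 1 or ERKi replicate 1 and 134 without ERKi replicate 3. The 24h and 4h comparisons share no library. Of 703 regions lower at 24h in this set, 664 (94.5%) were also below 0 at 4h and 27 passed the test there. Of 572 higher at 24h, 545 (95.3%) were above 0 at 4h and 2 passed, where 52.1% of all regions were above 0. The median difference at 4h was -0.53 for the lower and 0.33 for the higher regions. Their medians at 24h, -1.22 and 1.20, chose the regions and are larger for that reason, so the sizes at both times are not compared here. The difference between the times was tested as an interaction. It passed in 0 regions (0%) by limma without the block, where 1565 had an unadjusted p below 0.05 and the lowest adjusted p was 0.362, and in 1509 with the block, 863 (2.94%) above and 646 (2.20%) below the 4h difference.

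The 2 regions that were already higher at 4h lay near Cpeb4 (1.10 ± 0.19 at 4h and 2.10 at 24h) and at the promoter of Cyp1b1 (1.19 ± 0.21 and 1.74), which were named here because the count is small. Regions nearest to Gm10495 (-1.98 at 4h and -2.87 at 24h), Kank1 (-1.88 and -2.31), Tead1 (-1.75 and -2.29) and Zfp53 (-1.68 and -2.32), all among the largest falls at 24h, were lower at 4h too. The largest fall at 4h, nearest to Lrrk1, was -2.57 at 4h and -0.94 at 24h. Next came a region nearest to Txnrd3 (-2.35 and -0.81), which did not pass at 24h (limma, adjusted p = 0.306). Of the 37 regions lower at 4h, 27 were also called lower at 24h. A region nearest to Cdkn2b, a cyclin kinase inhibitor that TGF-β induces, had -1.94 and -2.07. One nearest to Nrp1, a semaphorin receptor, had -1.55 and -2.09. Both lay more than 100 kb from the start of the gene named and were picked after their values were seen.

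In untreated cells both sets of regions stood near the middle of their lists. For the lower set, the median percentile per library averaged 50.9 ± 4.5 (SD, n = 3) at 0h, 54.9 ± 5.7 at 4h and 72.1 ± 4.7 at 24h with DMSO, and 37.7 ± 3.5 at 4h and 39.4 ± 8.2 at 24h with ERKi. The higher regions went the other way, with 53.1 ± 4.6 at 0h, 56.0 ± 9.3 at 4h, 40.3 ± 6.6 at 24h, 66.1 ± 7.8 at 4h with ERKi and 73.2 ± 7.4 at 24h with ERKi. The 24h levels with DMSO and ERKi chose these regions and are given as a description, and the 0h and 4h levels with DMSO lay within 1 SD of each other. For single regions the level at 0h varied. The Fosl1 region stood at 98.6 ± 0.68 at 0h, as high as with DMSO at 24h, while the Igf2bp3 region stood at 67.9 ± 12 at 0h, between its levels with DMSO and with ERKi at 24h. The Itgb3 region had no peak at 0h, and the Ereg region had one in 1 of 3 libraries (0.302 ± 0.52). At 24h both regions had a peak in all 6 libraries and stood lower with ERKi than with DMSO.

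**Figure D5:**
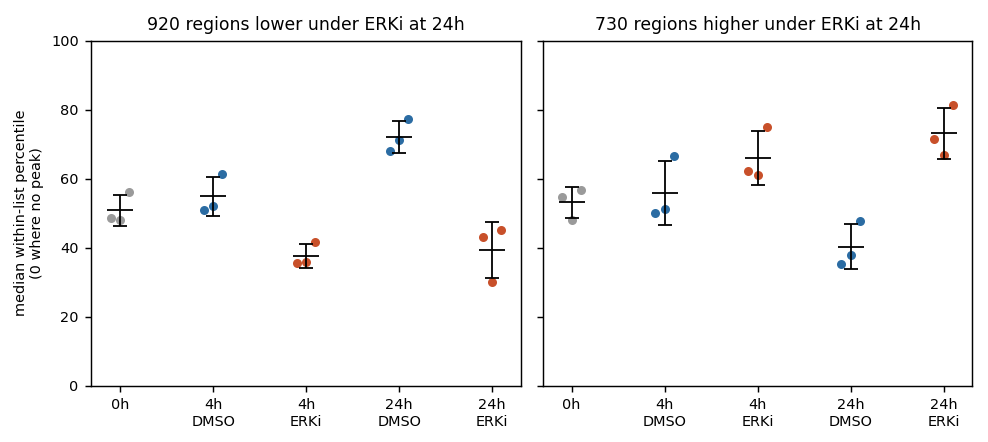
Median percentile of the pileup (y axis, 0 to 100) in each of the 15 libraries, grouped by condition, for the 920 regions lower and the 730 regions higher under ERKi at 24h, with the mean and SD over 3 libraries. The lower set stands highest with DMSO at 24h and the higher set with ERKi at 24h.

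The calls of peaks were compared between the groups as well. A peak was called in all 3 DMSO and no ERKi libraries at 1167 of 82600 regions (1.41%) and in all 3 ERKi and no DMSO libraries at 1418 (1.72%). These were mostly low: their mean percentile had a median of 26.3 in the DMSO set and 26.0 in the ERKi set, and 5.23% and 5.43% were promoters. More of the DMSO set lay beyond 100 kb from a start site, 23.0% against 12.1%. The counts moved with the libraries, to 2123, 2737 and 1933 DMSO regions without DMSO replicate 1, DMSO replicate 2 and ERKi replicate 3, and to 2372 and 4194 ERKi regions without DMSO replicate 3 and ERKi replicate 2. Of the ERKi set, 352 regions had a peak in all 0h libraries and 682 in none, and of the DMSO set 281 and 593. In the libraries of the same treatment at 4h, 476 of the 1418 and 250 of the 1167 had a peak in all 3.

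Among the highest of these regions, many had a peak of the other group close by. Of those over the 50th percentile, 112 of 218 in the DMSO set (51.4%) and 93 of 212 in the ERKi set (43.9%) had a peak of every library of the other group within 1000 bp. The highest DMSO region, in an intron of Golga7b (chr19:42339138-42339964), stood at 99.8, 99.9 and 99.9 with DMSO and its nearest ERKi peaks were 2061 to 2084 bp away. In the DMSO libraries at 4h it stood at 0, 95.2 and 99.2, so that its call also differed between replicates of 1 condition. The DMSO region in Pmepa1, a TGF-β target that dampens Smad signalling, stood at 98.7, 95.4 and 98.4, with ERKi peaks 372 to 458 bp away. The one upstream of Ier3, an ERK-induced survival gene, stood at 96.7, 92.0 and 97.4, with ERKi peaks 842 to 971 bp away, and neither of these had a peak at 0h. The other 3 DMSO regions, near Cd47, Klf14 and Trim8, had ERKi peaks within 233 to 1136 bp.

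On the ERKi side, the region in Bmf, a pro-apoptotic gene that ERK holds down, stood at 98.0, 92.9 and 97.9, with DMSO peaks 565 to 2030 bp away. In Cdk6, a cell cycle kinase, a region 501 bp from the start stood at 97.3, 99.0 and 98.3, and DMSO peaks ended 156 to 174 bp from it. The 0h libraries had 99.0, 97.9 and 0 at this Cdk6 region, so a missing call there also occurred within 1 condition. The other 3, near C030046E11Rik, Tchp and St3gal1, had DMSO peaks within 280 to 1098 bp.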

How the data were processed

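H3K27ac ChIP-seq was measured in 15 libraries, 3 for each condition, and the 6 at 24h of TGF-β with DMSO or ERKi were compared. Reads were mapped by the authors with bowtie (mm9) and peaks were called library by library with MACS2, whose control is not given in the sources used here. Per the file headers and labels, the deposited lists give fold enrichment, the ratio of pileup to local background, with -log10 p and -log10 q. The deposited score, a whole-number form of -log10 q, did not enter. The lists hold no read totals, so the depth is unknown and no counting interval was computed.

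The pileup and local background of each peak were solved from the fold enrichment, taken as (pileup + 1) / (background + 1), and the Poisson upper-tail p. Of 893719 peaks in the 15 lists, 25 could not be solved. Overlapping peaks were merged into regions, and those with a peak in all 6 libraries were fitted with limma 3.58.1 in R 4.3.3 (trend and robust options) on log2 pileup centred on the library median. Benjamini-Hochberg adjustment ran over all regions, with a threshold of 0.05. No batch is named in the labels. Genes and start sites came from GENCODE vM1 on NCBIM37 (mm9), the nearest protein-coding start was used, and gene values are means over regions within 100 kb. On simulated data for the comparison of ERKi with DMSO at 24h over 33567 regions, 13% of 100 regions changed by 1 log2 unit and 68% of 100 changed by 2 were recovered, with 2 false calls. The simulated noise was independent between libraries, without the shared deviations described below, and only 200 regions were changed. These rates may therefore differ from those in the data.

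Libraries that share a replicate number deviated from their group means together (correlations of 0.53, 0.58 and 0.75 at 24h, and 0.51, 0.65 and 0.78 at 4h), so the number was used as a block in an alternative fit. The pairing comes from this check, as the labels only number the replicates.

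Regions named are the 12 per direction with the largest differences among called regions whose groups did not overlap, 1 per nearest coding gene, and the 6 per direction with the highest mean percentile among regions called in 1 group alone. Also named are the 8 genes per direction with most called regions, and for each list the members with a called region. One region and one gene that these rules name are not reported here. Others are stated to be chosen after the values were seen. The regions, lists and tests were chosen with earlier results of these data known. Alternatives were other measures, scalings, filters, merging distances, gene assignments and each library left out. Tables and figures were made with Python 3.11.15, NumPy 2.4.6, pandas 2.3.3, SciPy 1.17.1 and matplotlib 3.10.9.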

Additional observations from a re-analysis of the deposited data

Results flagged for a closer look

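The region 37.5 kb upstream of Cxcl1, a chemokine gene (chr5:91282239-91283248), had a difference between ERKi and DMSO of 0.96 on the log2 scale at 24h and of -0.21 (SE 0.22) at 4h, fitted over the regions with a peak in all 12 libraries. It was singled out because in centred log2 pileup every replicate pair was higher under ERKi at 24h and lower at 4h. By percentile, replicate 1 at 4h stood at 59.4 in DMSO and 61.5 in ERKi, so that the 4h direction does not hold for that pair on this measure. The interaction of treatment with time gave an adjusted p of 0.598 by limma and of 0.00174 with the replicate block.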

How the results depend on the processing

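Precision was limited by 3 libraries per group, by the lack of read totals and by regions without a peak in every library, which were not tested. All 75 named region calls were kept with the replicate block, 71 with quantile and 71 with loess scaling (the latter added after seeing the data), 70 without trend and robust options, 48 by -log10 p, 36 without centring, 35 by percentile and 2 by fold enrichment. The cause was not tested.

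Counts are given as lower and higher. With the replicate block, which pairs the libraries, they were 4441 and 5004 regions, 1130 and 1196 genes, 1805 and 993 regions at 4h, and 1509 regions with an interaction. By percentile they were 261 and 170 regions and 21 genes lower. By fold enrichment they were 40 and 21 regions, and 1 and 2 genes. By -log10 p they were 469 and 381 regions, and 27 and 15 genes. Without centring they were 162 and 218 regions and 22 genes lower. With peaks of -log10 q of at least 10 they were 185 and 87 regions, 10 and 5 genes, and 656 and 749 regions called in DMSO or ERKi alone, or 130 and 71 with that limit in the calling group only. Regions with a peak in at least 3 of 6 libraries gave 1706 and 1271. Genes numbered 83 and 67 without trend and robust options, 131 and 88 with all annotated genes, 8 and 11 within 20 kb, and 69 lower with loess scaling. Merging within 1000 bp left 750 DMSO regions. AP-1 shares of the lower and higher regions were 1.74% and 2.47% within 50 bp, 14.9% and 13.4% within 200 bp, and 65.1% and 43.3% within 500 bp.

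With 1 library left out, regions lower numbered 370 to 1125 and higher 147 to 1106, genes 0 to 12 and 0 to 14, regions called in DMSO alone 1258 to 2737 and in ERKi alone 1635 to 4194, and regions at 4h 7 to 134 and 0 to 5. The difference in the number of peaks, 1061, ranged from -1882 to 4687. By fold enrichment 13 regions changed sign, with log2 differences of 0.14 at 2610203C20Rik, -0.11 at Fermt1, 0.048 at Spry2, 0.015 at Egfr, -0.088 at Tgfb2, 0.18 at Spp1, 0.23 at Lamb1, -0.45 at Cmtm8, 0.19 at Gata3, -0.22 at Hnf4a, 0.10 at Krt80, 0.19 at Nfkb1 and 0.025 at Sox13.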
